A study of Mus musculus with 18 samples.

Results

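The 37 genes described here code for enzymes of sphingolipid metabolism and of fatty acid elongation and desaturation. They were taken by gene symbol from a list, and all 37 were found among the 55401 genes of the skin table and of the lung table. By role, 13 act in de novo ceramide synthesis, 6 in glycosylation and sphingomyelin turnover, 9 in ceramide breakdown and phosphorylation, and 9 in fatty acid elongation and desaturation. RNA-seq counts came from skin and lung of female wild-type (WT) mice, 3 libraries per group and tissue and 18 in all. La-Cer mice were given MC903 (calcipotriol, an analogue of vitamin D, 4 nmol), OVA (ovalbumin, 50 µg) and an emollient of linoleic acid-ceramide. AD mice were given MC903 and OVA at these doses without the emollient, and control mice had no treatment. Treatment ran over 28 days. AD stands for the atopic dermatitis model, and the labels give no treatment for control mice, so effects of the vehicle or of handling cannot be told apart from those of the agents. The labels give neither the age of the mice nor the skin site.

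Ceramides are built from serine and palmitoyl-CoA by serine palmitoyltransferase, a ketone reductase, the ceramide synthases and the dihydroceramide desaturases. The synthases differ in the length of the acyl chain they attach, and elongases of the Elovl family make those chains. In the outer epidermis, ceramides with very long and ultra-long acyl chains, some of them linked to linoleic acid, form the lamellae that hold back water. In the lung the same pathways feed sphingomyelin and signalling lipids, and fatty acid synthesis in alveolar type 2 cells feeds surfactant.

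Total counts per library lay between 13472283 and 18647521 in skin and between 15904723 and 19338972 in lung. Keratinocyte markers summed to 7377 to 34341 CPM (counts scaled to library size) in skin and to 6.21 to 41.2 CPM in lung, and alveolar type 2 markers to 22.1 to 63 CPM in skin and 22076 to 46953 CPM in lung, so each tissue held the markers of its label. Skin libraries were uneven within groups. Markers of the hair follicle summed to 1849, 2319 and 21851 CPM in La-Cer replicates 1, 2 and 3, to 5158, 192 and 4359 CPM in AD and to 19598, 8845 and 382 CPM in control skin. Gene length also moved with the groups: long minus short genes, on the log2 CPM scale, averaged 0.07 ± 0.34 in La-Cer, -0.60 ± 0.32 in AD and 0.54 ± 0.26 in control skin (SD, n = 3 each). In lung the averages were -0.27 ± 0.15 in La-Cer, 0.48 ± 0.18 in AD and -0.21 ± 0.80 in control (SD, n = 3 each). Long genes were thus relatively lower in AD than in control skin, and relatively higher in AD than in control lung. The part of these differences in the results was not tested, other than by removing the length trend as described below. In whole tissue, fewer cells of a type and less RNA per cell cannot be told apart.

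In skin, 5 of the 37 genes rose and 1 fell in AD mice against control mice. The genes that rose were Sptssa, Degs1 and Degs2 of de novo synthesis and the elongases Elovl3 and Elovl7, and the gene that fell was the ceramide synthase Cers6. These 6 calls are 16.2% of the 37 genes, against 6.86% of all 16956 genes tested in this comparison, 3.42% higher and 3.44% lower (edgeR, adjusted p under 0.05). At an unadjusted p under 0.05 there were 16 of the 37, 43.2%, and 28.9% of all genes. The median log2 fold change of the 37 genes was 0.42, against -0.05 over all genes tested. In 14 of the 37 genes, 37.8%, all 3 AD libraries lay above all 3 control libraries, against 16.3% of all genes, and in 2 genes, 5.41%, they lay below, against 18.2%. In the tables' GRCm38 coordinates, Sptssa lies at chr12:54645392-54656573, Degs1 at chr1:182275772-182282804 and Degs2 at chr12:108678711-108702315, all on the minus strand. Cers6 lies at chr2:68861441-69114282, Elovl3 at chr19:46131897-46135694 and Elovl7 at chr13:108214404-108285683, all on the plus strand.

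The small subunit Sptssa raises the activity of serine palmitoyltransferase, the enzyme that commits palmitoyl-CoA to the sphingolipid pathway. Its level, in TMM-scaled RPKM (reads per kilobase of exon, scaled to library size), was 123, 330.4 and 412 in AD replicates 1, 2 and 3 and 51.3, 62 and 90.4 in control replicates 1, 2 and 3. The AD libraries were all above the control libraries, with AD replicate 1 the closest. The log2 fold change was 2.09 ± 0.48 (SE, edgeR adjusted p = 0.0421), and SE is the error given beside every fold change here. The other subunits differed less: the common subunit Sptlc1 had 16.6, 27.6 and 20.9 RPKM in AD and 14.7, 13.8 and 13.4 RPKM in control skin, which did not overlap but did not pass the test (log2 fold change 0.63 ± 0.29, edgeR adjusted p = 0.174). The catalytic subunit Sptlc2 and its alternative Sptlc3, which accepts shorter acyl-CoAs, had log2 fold changes of -0.05 ± 0.28 and 0.45 ± 0.74. Sptssb, the second small subunit, spread from 0.406 to 7.32 RPKM over the AD libraries and from 0.427 to 14.5 RPKM over the control libraries. Kdsr, the reductase of the following step, averaged 7.2 ± 1.7 RPKM in AD and 4.01 ± 1.69 RPKM in control skin (SD, n = 3 each), and did not pass the test (edgeR adjusted p = 0.166).

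Both dihydroceramide desaturases, which turn dihydroceramide into ceramide, rose in AD skin. Degs1 was at 52.1, 106 and 211 RPKM in AD and at 20.8, 20 and 25.6 RPKM in control skin, a log2 fold change of 2.47 ± 0.54 (SE, edgeR adjusted p = 0.0417). Degs2, which in addition adds the hydroxyl group of phytoceramides, was at 4.36, 5.11 and 0.979 RPKM in AD and 0.199, 0.0477 and 0.216 RPKM in control skin. The AD libraries were above the control libraries for both genes, and for Degs2 AD replicate 3 stood well below the other 2. Degs2 rested on few reads, 184, 178 and 35 counts in AD and 11, 2 and 10 counts in control libraries, and its log2 fold change was 4.46 ± 1.02 (SE, edgeR adjusted p = 0.0421). Of its exonic bases 10.8% are shared with Evl on the opposite strand, and because the strandedness of the counting is not given in the sources used here, reads of the 2 genes cannot be told apart there. Degs1 made up 95.7% ± 3.64 of the summed level of the pair in AD skin and 99.3% ± 0.382 in control skin (mean ± SD, n = 3 each).

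The ceramide synthases did not move together in AD skin. Cers6, which attaches mainly palmitoyl chains, was at 1.02, 1.22 and 1.16 RPKM in AD and 2.76, 3.11 and 5.08 RPKM in control skin, a log2 fold change of -1.69 ± 0.40 (SE, edgeR adjusted p = 0.043). All AD libraries were below all control libraries, and the AD libraries were close to each other. Cers4, known for its role in the sebaceous gland and hair follicle of mice, was at 31.3, 79.1 and 58.6 RPKM in AD and 10.8, 13.6 and 8.21 RPKM in control skin. Cers5, which like Cers6 prefers palmitoyl-CoA, was at 18.9, 22.7 and 24.9 RPKM in AD and 9.41, 8.42 and 9.96 RPKM in control skin. The AD libraries of Cers4 and Cers5 were above the control libraries, with log2 fold changes of 2.38 ± 0.72 and 1.26 ± 0.38, but neither passed the test (edgeR adjusted p = 0.0688 and 0.0658). Cers2, the synthase of very long chains, had a log2 fold change of 0.11 ± 0.29. As a share of the summed level of Cers1 to Cers6, Cers4 averaged 56.3% ± 10.5 in AD and 27.4% ± 6.43 in control skin, and Cers6 averaged 1.21% ± 0.242 in AD and 9.25% ± 3.24 in control skin (mean ± SD, n = 3 each). Fa2h, which hydroxylates the acyl chain, had 122, 445 and 148 RPKM in AD and 35, 46.5 and 42.1 RPKM in control skin. Its libraries did not overlap, but AD replicate 2 was far above the other AD libraries and the gene did not pass the test (log2 fold change 2.53 ± 0.85, edgeR adjusted p = 0.0908).

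**Figure D1:**
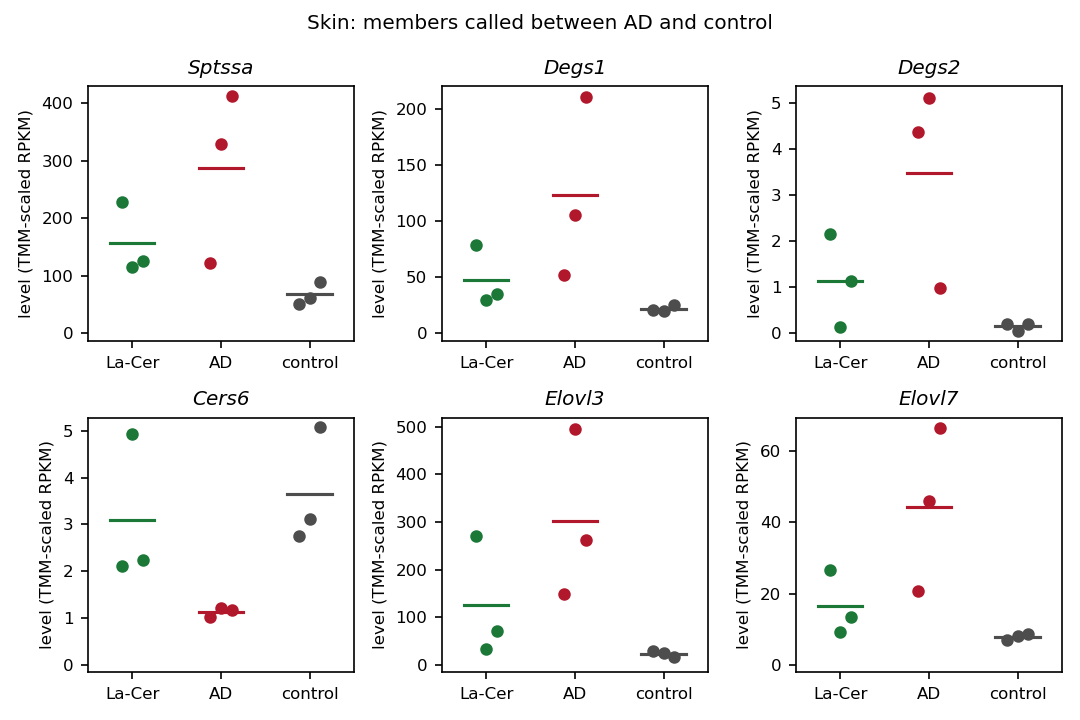
Levels in skin of the 6 genes called between AD and control, in TMM-scaled RPKM on linear axes that begin at 0. Each point is 1 library (3 per group, replicates 1 to 3 from left to right) and the horizontal lines are group means; the AD points lie above the control points for 5 genes and below them for Cers6, and La-Cer replicate 1 is the highest La-Cer library in all but Cers6.

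The promoters of 4 of these 6 genes are shown because the genes were called together and their RefSeq starts lie close to the start of the gene in GENCODE vM21. Each line gives the bases just before the transcript (RefSeq, GRCm38.p6, cut where the GENCODE gene begins), from the upstream end to the start, on the strand of the gene. Capitals mark the CCAAT box, the GC box with the letters GGGCGG and the E-box with the letters CACGTG. Both strands were searched, and a match on the other strand appears as its reverse complement.
Sptssa, chr12:54656574-54656822, minus strand: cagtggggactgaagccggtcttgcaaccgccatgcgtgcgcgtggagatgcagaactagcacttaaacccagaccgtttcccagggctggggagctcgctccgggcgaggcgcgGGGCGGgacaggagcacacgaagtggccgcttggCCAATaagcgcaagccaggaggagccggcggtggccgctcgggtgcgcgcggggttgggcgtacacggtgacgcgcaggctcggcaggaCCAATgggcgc
Degs2, chr12:108702316-108702556, minus strand: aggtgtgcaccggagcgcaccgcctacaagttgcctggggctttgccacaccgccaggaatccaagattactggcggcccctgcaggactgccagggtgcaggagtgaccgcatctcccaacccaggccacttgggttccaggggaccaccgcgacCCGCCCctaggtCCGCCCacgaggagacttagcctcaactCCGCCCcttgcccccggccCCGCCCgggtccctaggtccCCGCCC
Cers6, chr2:68861191-68861440, plus strand: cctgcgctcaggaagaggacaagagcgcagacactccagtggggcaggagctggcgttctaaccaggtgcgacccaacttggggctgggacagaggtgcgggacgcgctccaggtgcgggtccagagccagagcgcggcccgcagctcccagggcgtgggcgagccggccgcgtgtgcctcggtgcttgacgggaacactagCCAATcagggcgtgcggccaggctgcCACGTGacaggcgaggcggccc
Elovl7, chr13:108214154-108214403, plus strand: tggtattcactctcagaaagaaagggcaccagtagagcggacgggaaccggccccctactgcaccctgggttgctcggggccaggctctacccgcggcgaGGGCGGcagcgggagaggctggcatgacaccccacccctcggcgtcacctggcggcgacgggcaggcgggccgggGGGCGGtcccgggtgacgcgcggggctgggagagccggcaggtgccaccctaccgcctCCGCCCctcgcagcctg
The Sptssa window holds 2 CCAAT boxes and 1 GC box, that of Degs2 holds 5 GC boxes, that of Elovl7 holds 3 GC boxes, and that of Cers6, the gene that fell, holds 1 CCAAT box and 1 E-box. RefSeq promoters were found for 30 of the 37 genes, 46 promoters in all. In the 250 bases before the start, 25 of the 46 held a GC box, against 32.7% of all 32851 promoters. A CCAAT box was in 15 of the 46, against 33.8%, and an E-box in 8, against 6.02%. The sterol regulatory element TCACNCCAC, in 1.05% of all promoters, was in none of the 46. The direct repeats bound by nuclear receptors, with 1 or 3 spacer bases, were in none either, and in 0.0335% and 0.00609% of all promoters. These letters describe the windows only.

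Glycosylation and sphingomyelin turnover held no call in AD skin. None of its 6 genes passed the test, and their log2 fold changes lay between -0.11 for Sgms1 and 0.69 for Smpd1. Smpd1, the acid sphingomyelinase that releases ceramide from sphingomyelin, was at 36.9, 32.5 and 36.6 RPKM in AD and 30.2, 18.6 and 16.8 RPKM in control skin, with no overlap (log2 fold change 0.69 ± 0.41, edgeR adjusted p = 0.285). Ugcg, which makes glucosylceramide, the precursor stored in lamellar bodies, was at 6.13, 8.56 and 16.2 RPKM in AD and 8.28, 7.15 and 7.98 RPKM in control skin, and the groups overlapped. Without AD replicate 3 its log2 fold change, 0.4 with all libraries, was -0.0849. The sphingomyelin synthases Sgms1 and Sgms2 and the neutral sphingomyelinases Smpd2 and Smpd3 had log2 fold changes of -0.11 ± 0.55, 0.01 ± 0.49, 0.08 ± 0.34 and 0.21 ± 0.44.

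None of the 9 genes of breakdown and phosphorylation passed the test in AD skin either. Acer1, the alkaline ceramidase of the upper epidermis, was at 51.8, 87.9 and 38.4 RPKM in AD and 20.5, 19.7 and 34.2 RPKM in control skin, with AD replicate 3 just above control replicate 3 (log2 fold change 1.26 ± 0.41, edgeR adjusted p = 0.0806). Cerk, the kinase that makes ceramide-1-phosphate, went the other way, with 6.13, 5.41 and 3.06 RPKM in AD and 9.54, 8.92 and 11.7 RPKM in control skin. These did not overlap, and the log2 fold change was -1.05 ± 0.33 (SE, edgeR adjusted p = 0.0729). The remaining 7 genes (Asah1, Acer2, Acer3, Sphk1, Sphk2, Sgpl1 and Sgpp1) had log2 fold changes between -0.2 for the acid ceramidase Asah1 and 0.84 for the sphingosine-1-phosphate phosphatase Sgpp1.

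Elongation and desaturation held the 2 calls with the smallest p. Elovl3, an elongase of saturated and monounsaturated very long chains that is known from the sebaceous gland and from brown fat of mice, was at 149.6, 495 and 263 RPKM in AD and 29.5, 25.3 and 17 RPKM in control skin. Elovl7, an elongase of saturated long chains, was at 20.8, 46 and 66.4 RPKM in AD and 7.1, 8.26 and 8.57 RPKM in control skin. Neither gene overlapped between the groups, and the log2 fold changes were 3.66 ± 0.76 (SE, edgeR adjusted p = 0.0413) and 2.48 ± 0.49 (SE, edgeR adjusted p = 0.0413). Elovl6, which lengthens palmitate to stearate, was at 98.1, 373 and 147 RPKM in AD and 33.8, 37.7 and 37.5 RPKM in control skin (log2 fold change 2.5 ± 0.74, edgeR adjusted p = 0.0655). Scd1, the stearoyl-CoA desaturase that makes oleate and that sebaceous glands need, was the most abundant of the 37 genes in skin, at 559, 1488 and 1627 RPKM in AD and 373, 226 and 269 RPKM in control skin (log2 fold change 2.08 ± 0.69, edgeR adjusted p = 0.0823). Both were above control in every AD library and neither passed the test. Elovl5, which lengthens polyunsaturated chains, had a log2 fold change of 0.81 ± 0.47. The other 4 genes had negative values that did not pass: -1.29 ± 0.53 for Elovl1, the elongase of saturated very long chains, -0.93 ± 0.59 for Fads1, -2.32 ± 1.02 for Fads2 and -1.4 ± 0.76 for Scd2. Fads1 and Fads2 desaturate linoleic acid and its products, and Fads2 was at 7.11, 1.62 and 2.19 RPKM in AD and 25.7, 27.6 and 1.5 RPKM in control skin, with control replicate 3 below all AD libraries.

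**Figure D2:**
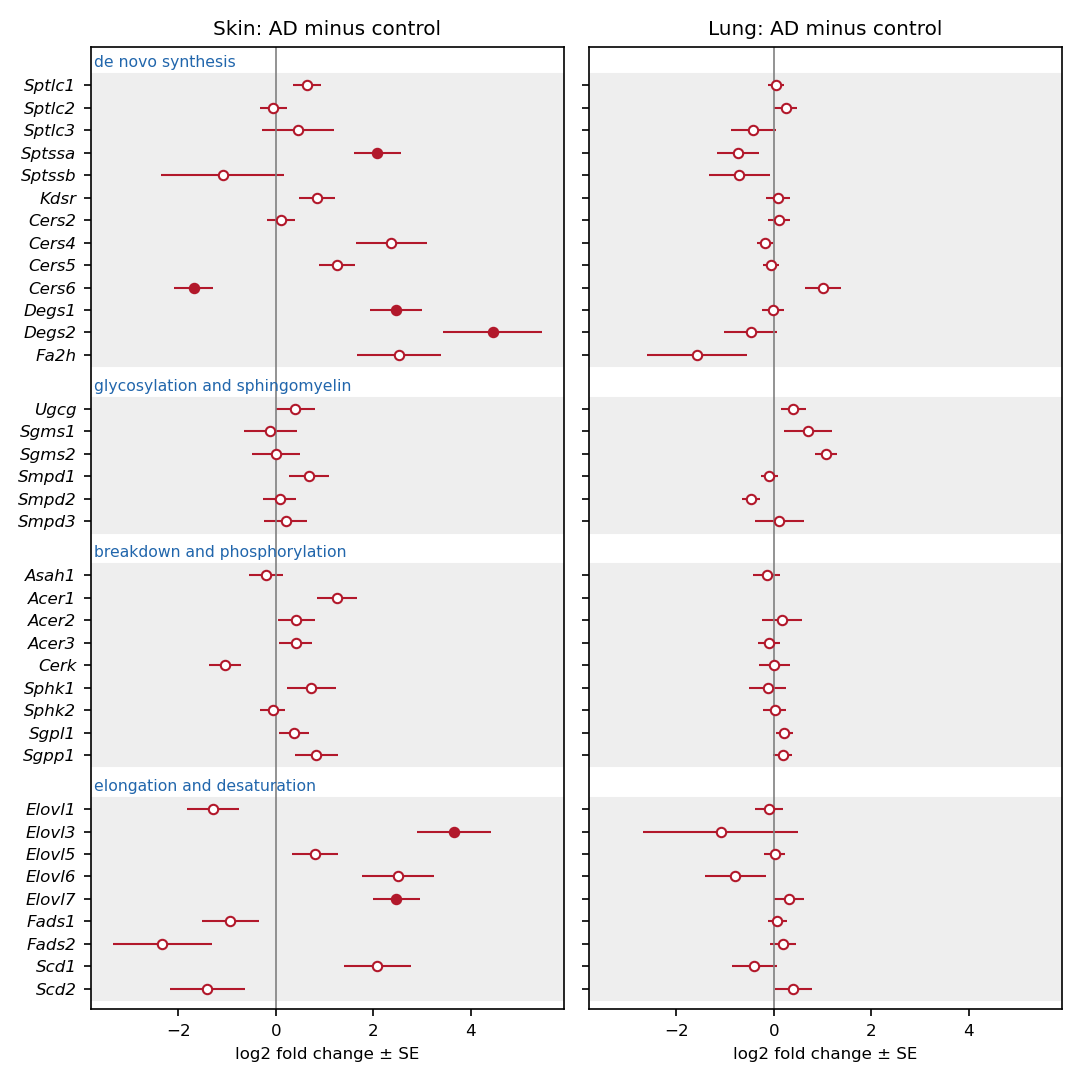
Log2 fold changes of AD minus control in skin (left) and lung (right) for the 37 genes, grouped by role; points are estimates, bars are SE, filled points passed an edgeR adjusted p of 0.05, and Acer1 was not tested in lung. In skin 5 filled points lie right of 0 and Cers6 lies left of it, while no point is filled in lung.

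The 6 calls in skin were close to the threshold, with edgeR adjusted p between 0.0413 and 0.043. Exonic sizes of the 5 genes that rose were 1518 (Sptssa), 1975 (Elovl3), 2583 (Degs2), 2591 (Degs1) and 4013 bases (Elovl7). These are below the median of 4468 bases of the 37 genes, and Cers6, which fell, has 8875. Short genes were relatively higher in AD than in control skin, and the 5 genes that rose are all shorter than Cers6. Not all of the 37 genes followed this order. Cers4, with 12264 bases, had a positive log2 fold change and Fads2, with 3295 bases, a negative one, and neither passed the test. The part of gene length in these changes was not tested, other than by removing the trend. With each library's trend over gene length removed, none of the 37 genes passed, and without 1 library in turn 3 genes passed without control replicate 3 (Degs1, Elovl7 and Sptssa) and 0 without any of the other 5 libraries; all 6 genes kept their sign in each of the 12 alternatives. DESeq2 called 12 of the 36 to which it gave an adjusted p. The share of all genes that DESeq2 called is not given here, so this count cannot be set against it.

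Some of these genes had their highest libraries in common with markers of skin appendages. Sebaceous gland markers (8 genes, among them Awat2, Mc5r and Far2, and none of the 37) summed to 4023, 1267 and 1515 CPM in La-Cer replicates 1, 2 and 3, to 2481, 3904 and 2514 CPM in AD and to 524, 605 and 610.4 CPM in control skin, and 4 of the 8 markers rose in AD skin. The 4 libraries with most of these markers, La-Cer replicate 1 and the 3 AD replicates, were also the 4 highest libraries for 9 of the 37 genes: Cers4, Cers5, Degs1, Elovl3, Elovl5, Elovl6, Elovl7, Fa2h and Scd1. The same held for 7.73% of all genes tested. These 4 libraries include all 3 AD libraries, so genes higher in AD skin meet this rule more readily. The count is therefore not independent of the AD comparison. The 3 libraries with most hair follicle markers, La-Cer replicate 3 and control replicates 1 and 2, were also the 3 highest for Fads1, Fads2, Scd2, Sptlc2 and Sptssb, 5 of the 37 genes, and for 9.84% of all genes tested. None of the 12 hair follicle markers was called between AD and control. Neutrophil markers, 2 of 4 tested higher in AD skin, summed to 18.9, 6.71 and 33.6 CPM in La-Cer, 41.5, 224 and 799.9 CPM in AD and 9.1, 16.6 and 9.02 CPM in control skin. None of the 7 keratinocyte, 8 skeletal muscle, 5 macrophage or 4 alveolar type 1 markers tested was called in this comparison, while 1 of 8 adipocyte and 1 of 5 alveolar type 2 markers tested fell. No marker of these lists was at 0 in all libraries of a tissue. The part of the appendages, of neutrophils and of the other cell types in the changes of these genes was not tested.

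**Figure D3:**
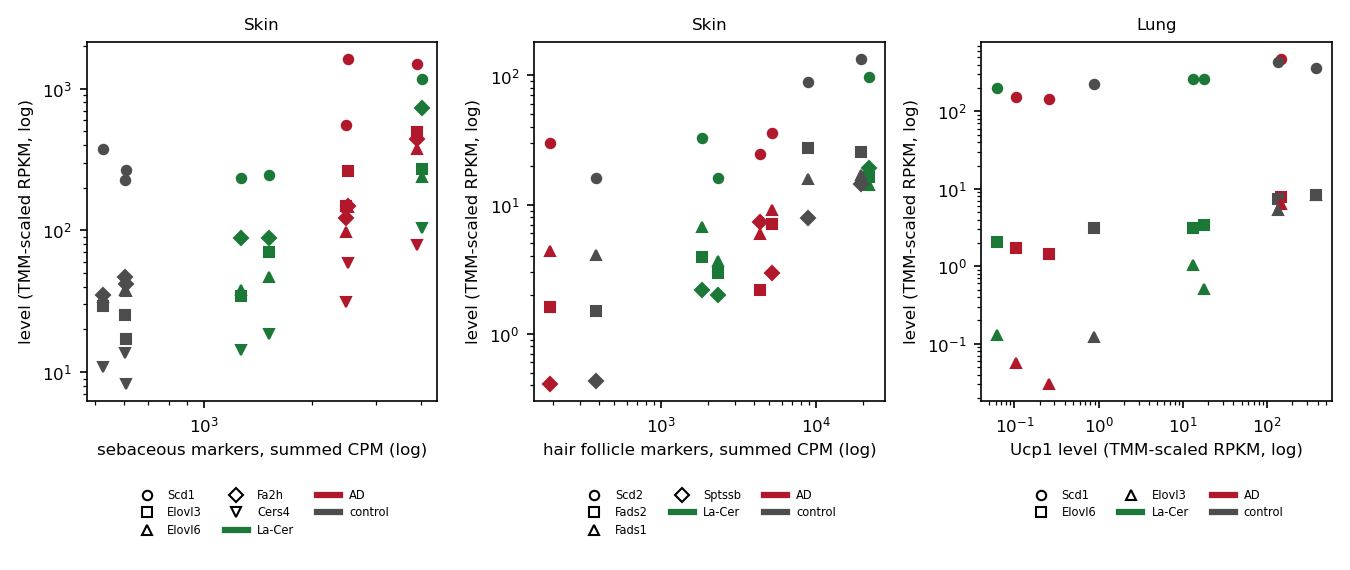
Levels of selected genes (TMM-scaled RPKM, log axis) against the summed CPM of sebaceous gland markers in skin (left), of hair follicle markers in skin (middle) and against the level of Ucp1 in lung (right, all log axes). Each symbol is 1 gene in 1 library, coloured by group; Elovl3 in lung AD replicate 1, at 0, is drawn at 0.03. In skin the 3 AD libraries and La-Cer replicate 1 are at the right of the sebaceous plot, and in lung control replicates 1 and 2 and AD replicate 2 are at the right of the Ucp1 plot.

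The comparison of La-Cer with AD addresses the emollient as a whole. No group was given MC903 and OVA with an emollient base alone, so the linoleic acid-ceramide, its base and the handling cannot be told apart. In skin no gene of the 37, and none of the 16956 genes tested (0%), passed between La-Cer and AD in the edgeR test. At an unadjusted p under 0.05 there were 7 of the 37, 18.9%, and 18.9% of all genes. DESeq2 called 1 of the 37, Cers6. The median log2 fold change was 0.03, against 0.02 over all genes. In 4 genes, 10.8%, the La-Cer libraries lay above all AD libraries and in 1, 2.7%, below them, against 13% and 9.48% of all genes.

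Cers6 had the smallest p of the 37, with 2.11, 4.94 and 2.25 RPKM in La-Cer and 1.02, 1.22 and 1.16 RPKM in AD skin. The La-Cer libraries were all above the AD libraries, La-Cer replicate 2 by the most, and the log2 fold change was 1.45 ± 0.40 (SE, edgeR adjusted p = 0.149). Cerk was at 7.31, 12.2 and 11.3 RPKM in La-Cer and 6.13, 5.41 and 3.06 RPKM in AD skin, again without overlap (log2 fold change 1.08 ± 0.33, edgeR adjusted p = 0.164). Elovl1 was at 38.6, 62.6 and 54.5 RPKM in La-Cer and 30.4, 17.8 and 7.74 RPKM in AD skin, without overlap (log2 fold change 1.48 ± 0.54, edgeR adjusted p = 0.197). Control skin was at 28.4, 29.5 and 78.7 RPKM for Elovl1 and overlapped with both groups. Sphk2, a sphingosine kinase, was the other gene above, with a log2 fold change of 0.48 ± 0.26, and Cers2 was the gene below, with 5.09, 5.52 and 6.39 RPKM in La-Cer and 8.37, 7.28 and 11.2 RPKM in AD skin.

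The 5 genes that rose in AD skin were not called lower in La-Cer skin, and their libraries overlapped. Elovl7 was at 26.7, 9.22 and 13.6 RPKM in La-Cer skin, against 20.8, 46 and 66.4 RPKM in AD skin (log2 fold change -1.43 ± 0.47, edgeR adjusted p = 0.174). Degs1 was at 78.7, 29.5 and 35 RPKM in La-Cer skin, against 52.1, 106 and 211 RPKM in AD skin (log2 fold change -1.37 ± 0.52, edgeR adjusted p = 0.208). In both, La-Cer replicate 1 lay above the lowest AD library and La-Cer replicates 2 and 3 lay below all of them. Sptssa, Degs2 and Elovl3 had log2 fold changes of -0.88 ± 0.47, -1.61 ± 0.88 and -1.27 ± 0.70. Elovl3 was at 271, 34.2 and 70.6 RPKM in La-Cer skin, where replicate 1 had several times the level of the other 2. Fa2h at 728, 88.4 and 88.3 RPKM and Cers4 at 104, 14.3 and 18.6 RPKM in La-Cer skin were as uneven, with replicate 1 above every AD library. Among the other roles, Acer3, an alkaline ceramidase, was at 2.52, 3.08 and 3.28 RPKM in La-Cer and 3.17, 4.47 and 8.17 RPKM in AD skin (log2 fold change -0.83 ± 0.34, edgeR adjusted p = 0.234). Smpd3 was at 10.4, 2.99 and 6.55 RPKM in La-Cer and 4.89, 5.07 and 4.17 RPKM in AD skin, and Ugcg at 8.93, 5.16 and 12 RPKM in La-Cer and 6.13, 8.56 and 16.2 RPKM in AD skin. Both overlapped, with log2 fold changes of 0.5 ± 0.44 and -0.25 ± 0.40, and the value of Ugcg was 0.24 without AD replicate 3 and 0.03 without La-Cer replicate 2.

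**Figure D4:**
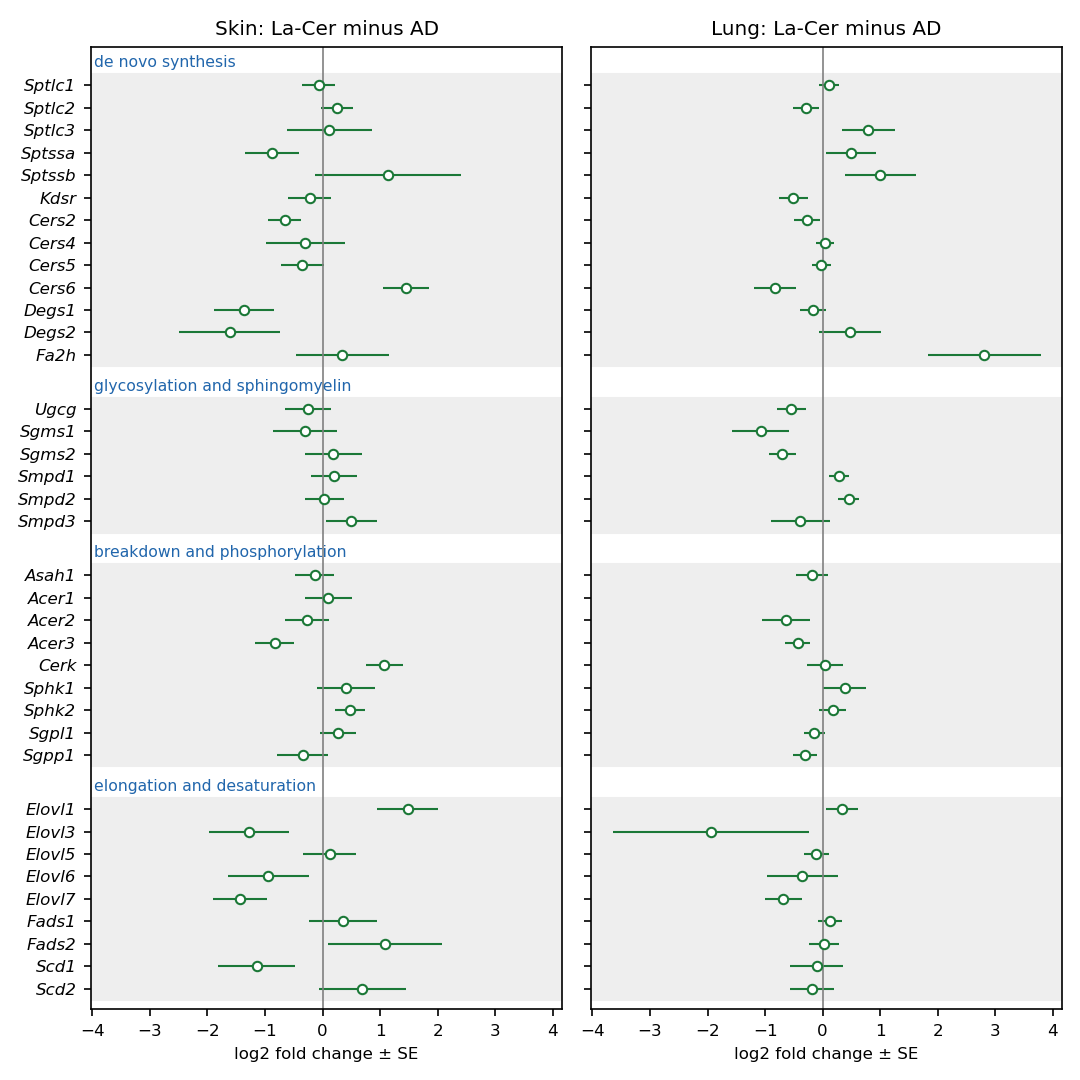
Log2 fold changes of La-Cer minus AD in skin (left) and lung (right), grouped by role, with points as estimates and bars as SE; Acer1 was not tested in lung. All points are open, since none of the genes passed an edgeR adjusted p of 0.05 in either tissue; Cers6 lies right of 0 in skin and left of 0 in lung.

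Against control skin, La-Cer skin also had 0 of 37 genes called, as had all genes tested (0%), with 9 genes, 24.3%, at an unadjusted p under 0.05 and 5.71% of all genes; DESeq2 called 0. The La-Cer libraries lay above all control libraries in 11 genes, 29.7%, against 6.48% of all genes, and below in 2, 5.41%, against 7.05%. The median log2 fold change of the 37 was 0.57, against -0.05 over all genes. Acer1 was at 93.1, 46.3 and 51.3 RPKM in La-Cer and 20.5, 19.7 and 34.2 RPKM in control skin, all La-Cer libraries higher (log2 fold change 1.36 ± 0.41, edgeR adjusted p = 0.837). Fa2h was at 728, 88.4 and 88.3 RPKM in La-Cer and 35, 46.5 and 42.1 RPKM in control skin, also without overlap (log2 fold change 2.87 ± 0.87, edgeR adjusted p = 0.837). This comparison and that of AD with control share the control libraries, so their values are not independent: the log2 fold change of Acer1 against control was 1.36 in La-Cer and 1.26 in AD skin. That of Elovl3 was 2.39 in La-Cer and 3.66 in AD skin, that of Sptssa was 1.21 in La-Cer and 2.09 in AD skin, and that of Cers6 was -0.24 in La-Cer and -1.69 in AD skin.

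In lung none of the 36 genes tested was called between AD and control, where 0.0463% of all 17272 genes were, 0.00579% higher and 0.0405% lower. At an unadjusted p under 0.05 there were 3 of the 36, 8.33%, and 20.9% of all genes, and DESeq2 called 1, Sgms2. The median log2 fold change was 0.01, as over all genes. Libraries did not overlap in 2 genes above and 2 below, 5.56% each, against 12.3% and 12% of all genes. Sgms2, the sphingomyelin synthase of the plasma membrane, was at 2.13, 2.22 and 2.47 RPKM in AD and 0.916, 1.22 and 1.12 RPKM in control lung, and the log2 fold change was 1.07 ± 0.23 (SE, edgeR adjusted p = 0.084). AD libraries were about at the same level as each other and all above control. Without control replicate 1, whose long genes were low (-1.13 for long minus short genes, against 0.24 and 0.26 in the other 2 control libraries), Sgms2 passed the test. Cers6 was at 5.32, 6.62 and 3.83 RPKM in AD and 1.33, 3.8 and 2.68 RPKM in control lung, without overlap by a narrow margin (log2 fold change 1.01 ± 0.37, edgeR adjusted p = 0.182). Smpd2, a neutral sphingomyelinase, was at 5.63, 4.87 and 5.76 RPKM in AD and 7.81, 5.98 and 8.66 RPKM in control lung, with all AD libraries lower (log2 fold change -0.47 ± 0.19, edgeR adjusted p = 0.205); 20.3% of its exonic bases are shared with Mical1 on the opposite strand.

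The other genes named by their p in AD lung overlapped between the groups. Sptssa was at 71.6, 67 and 61.9 RPKM in AD and 210.3, 62.3 and 62.7 RPKM in control lung. Control replicate 1 was far above all others, and the log2 fold change of -0.74 ± 0.43 was 0.10 without it. Sgpl1, the lyase that ends the pathway, was at 12.3, 15.6 and 13.5 RPKM in AD and 10.5, 13.1 and 12 RPKM in control lung, a log2 fold change of 0.22 ± 0.18. Sgpp1 was at 13.8, 13.9 and 11.7 RPKM in AD and 14.1, 10.1 and 10.6 RPKM in control lung, a log2 fold change of 0.18 ± 0.20. In both, AD and control libraries lay close together. Elovl6 was at 1.42, 7.82 and 1.72 RPKM in AD and 8.36, 7.44 and 3.16 RPKM in control lung, with a log2 fold change of -0.79 ± 0.62. Scd2, a desaturase broadly used outside the liver, was at 104, 167 and 113 RPKM in AD and 46.7, 136 and 107 RPKM in control lung, a log2 fold change of 0.4 ± 0.38.

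Between La-Cer and AD lung none of the 36 genes was called, where 1.91% of all genes were. At an unadjusted p under 0.05 there were 4, 11.1%, against 25.5% of all genes, and DESeq2 called 1, Fa2h. La-Cer libraries lay above all AD libraries in 5 genes, 13.9%, and below in 6, 16.7%, against 22.5% and 22.1% of all genes, so 11 genes did not overlap where 44.6% of all genes did not. With a fit to the 6 libraries of this comparison alone, 6 of the 36 genes passed, 3 higher and 3 lower. Fa2h and Smpd2 were among the higher, and Sgms2, Cers6 and Acer3 were the lower. The share of all genes that passed in this fit is not given here, so the count cannot be set against it. The lower genes Sgms2, Cers6 and Acer3 have exonic sizes of 6227, 8875 and 15324 bases, and Fa2h and Smpd2 have 3008 and 4468. Long genes were relatively lower in La-Cer than in AD lung, and the part of gene length was not tested in this fit. Sgms2 was at 1.54, 1.08 and 1.58 RPKM in La-Cer and 2.13, 2.22 and 2.47 RPKM in AD lung, all La-Cer libraries lower (log2 fold change -0.7 ± 0.23, edgeR adjusted p = 0.109). Smpd2 was at 7.49, 7.49 and 7.25 RPKM in La-Cer and 5.63, 4.87 and 5.76 RPKM in AD lung, all La-Cer libraries higher (log2 fold change 0.45 ± 0.19, edgeR adjusted p = 0.169). Cers6 was at 2.37, 3.74 and 2.77 RPKM in La-Cer and 5.32, 6.62 and 3.83 RPKM in AD lung, La-Cer replicate 2 just below AD replicate 3 and the others lower (log2 fold change -0.83 ± 0.37, edgeR adjusted p = 0.195). Fa2h rested on 32, 14 and 18 counts in La-Cer and 2, 1 and 5 counts in AD libraries, and had a log2 fold change of 2.81 ± 0.98 (SE, edgeR adjusted p = 0.121); it was at 0 in 1 control library. Acer3 was at 2.97, 3.05 and 2.74 RPKM in La-Cer and 4.46, 3.68 and 3.72 RPKM in AD lung, all La-Cer libraries lower, with a log2 fold change of -0.44 ± 0.22 that was 0.0803 with the length trend removed. Elovl7 was at 1.34, 1.81 and 1.16 RPKM in La-Cer and 2.69, 2.18 and 2.04 RPKM in AD lung, all La-Cer libraries lower (log2 fold change -0.68 ± 0.31). Sgpp1 and Elovl1 overlapped: Sgpp1 was at 12.4, 9.66 and 9.82 RPKM in La-Cer and 13.8, 13.9 and 11.7 RPKM in AD lung, and Elovl1 at 72.5, 90.5 and 76 RPKM in La-Cer and 58.2, 85.1 and 46.6 RPKM in AD lung, with log2 fold changes of -0.31 ± 0.20 and 0.33 ± 0.28. Against control lung, La-Cer lung had 0 of 36 genes called, where 0.0347% of all genes were, and DESeq2 called 0; 1 gene, Acer3, had an unadjusted p under 0.05, against 3.17% of all genes, with 5.63, 3.44 and 3.61 RPKM in control lung and the La-Cer values above. La-Cer libraries lay above all control libraries in 1 gene and below in 4, against 5.64% and 5.69% of all genes.

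Elovl3, Elovl6 and Scd1 had their 3 highest lung libraries in common with a gene of brown fat. Elovl3 was at 0.511, 0.129 and 1.05 RPKM in La-Cer, 0, 6.43 and 0.0572 RPKM in AD and 8.36, 5.37 and 0.122 RPKM in control lung. Ucp1, the uncoupling protein of brown adipocytes, chosen after its values were seen, was at 17.9, 0.0625 and 13.2 RPKM in La-Cer, 0.256, 145 and 0.104 RPKM in AD and 382, 135 and 0.886 RPKM in control lung. Control replicates 1 and 2 and AD replicate 2 were the 3 highest libraries for Ucp1, and also for Elovl3, Elovl6 and Scd1, 3 of the 36 genes, and for 1.01% of all genes tested. Since Ucp1 was chosen with its values known, these counts only describe the libraries. Adipocyte markers summed to 574, 192 and 529 CPM in La-Cer, 34.9, 594 and 96 CPM in AD and 3031, 651 and 328 CPM in control lung. None of the 8 adipocyte markers was called in a lung comparison, 1 of 8 skeletal muscle markers rose and 1 of 4 neutrophil markers tested fell between La-Cer and AD lung, and no marker of another list was called. The part of adipose tissue in the levels of these 3 genes was not tested.

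In 3 of 8 enzyme families, the ceramide synthases, alkaline ceramidases and elongases, the leading member by mean share differed between control skin and control lung. In the other 5 it was the same: Degs1 (99.3% ± 0.382 of its family in control skin and 99.3% ± 0.381 in control lung), Scd1 (77.5% ± 10.9 in control skin and 77.5% ± 10.5 in control lung), Sptssa (88.8% ± 10.8 in control skin and 98.3% ± 0.233 in control lung), Sphk2 (74.1% ± 11.2 in control skin and 57.8% ± 20.7 in control lung) and Sptlc2 (58% ± 30.7 in control skin and 92.7% ± 3.55 in control lung), each a mean ± SD with n = 3. Single libraries departed from these means. In control skin replicate 3, Cers5 at 25.4% was above Cers4 at 20.9%, and Sptlc3 held 76.8% of its family. In control lung replicate 1, Sphk1 held 64.6% of its family. Between control skin and control lung, 9 of the 37 genes were higher in skin and 8 lower, 45.9% in all, against 42.8% of all 19129 genes tested over the 18 libraries, so the share is close to that of all genes. At an unadjusted p under 0.05 the shares were 51.4% of the 37 and 49.7% of all genes. The largest contrast was among the alkaline ceramidases. Acer1 had 1065, 776 and 1492 counts in control skin and 0, 0 and 1 counts in control lung, a ratio of 3226 of the scaled counts with an exact 95% interval of 579 to 127447 that covers counting error only. Acer2, the ceramidase of the Golgi, was at 2.79, 2.58 and 1.51 RPKM in control skin and 33.2, 56.4 and 65.4 RPKM in control lung when all 18 libraries were scaled together (log2 fold change -4.5 ± 0.46, edgeR adjusted p = 8.72e-07). Acer1 was above Acer2 in every skin library and below it in every lung library. As a share of the 3 alkaline ceramidases, Acer1 averaged 91.5% ± 2.43 in La-Cer, 86.4% ± 8.74 in AD and 78.9% ± 7.05 in control skin, and Acer2 averaged 92.9% ± 0.613 in La-Cer, 92.7% ± 2.79 in AD and 91.8% ± 5.03 in control lung (mean ± SD, n = 3 each). Of the exonic bases of Acer1, 14.1% are shared with a long noncoding RNA on the opposite strand.

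Genes of de novo synthesis differed between the tissues in both directions. Fa2h was at 35.9, 47.1 and 43 RPKM in control skin and 0, 0.161 and 0.29 RPKM in control lung (log2 fold change 8.1 ± 1.05, edgeR adjusted p = 1.01e-05), with 0, 9 and 15 counts behind the lung values. Cers2 was at 9.08, 9.66 and 6.58 RPKM in control skin and 66.1, 46.8 and 42.9 RPKM in control lung (log2 fold change -2.62 ± 0.27, edgeR adjusted p = 7.32e-07), and averaged 63.4% ± 5.42 of the ceramide synthases in control lung. Sptlc2 was at 6.79, 6.32 and 4.63 RPKM in control skin and 16.6, 21 and 19.5 RPKM in control lung (log2 fold change -1.69 ± 0.26, edgeR adjusted p = 5.17e-05). Its alternative Sptlc3 was called higher in skin (edgeR adjusted p = 0.0157), but the groups overlapped, at 1.55, 2.8 and 15.3 RPKM in control skin and 2.12, 1 and 1.25 RPKM in control lung, and without control skin replicate 3 the log2 fold change was 0.58 and did not pass. Cers5 was at 9.67, 8.51 and 10.2 RPKM in control skin and 20.8, 18.9 and 21.1 RPKM in control lung, and Degs1 at 21.3, 20.2 and 26.2 RPKM in control skin and 70.1, 43.4 and 46.2 RPKM in control lung. Both were lower in control skin, with log2 fold changes of -1.1 ± 0.29 and -1.24 ± 0.41.

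Among the genes of breakdown, Asah1, the acid ceramidase of lysosomes, was at 9.15, 5.86 and 9.63 RPKM in control skin and 41.5, 23.5 and 23.3 RPKM in control lung and was lower in skin (log2 fold change -1.84 ± 0.32). Sphk2 was at 14.7, 16.3 and 21.4 RPKM in control skin and 5.05, 8.04 and 10 RPKM in control lung, and Sgpp1 at 18.8, 23.4 and 39.2 RPKM in control skin and 13.5, 9.66 and 10.2 RPKM in control lung. Both were higher in skin, with log2 fold changes of 1.18 ± 0.24 and 1.29 ± 0.35. Sgpl1 was at 20.7, 18.6 and 17.2 RPKM in control skin and 10.1, 12.5 and 11.5 RPKM in control lung, a log2 fold change of 0.73 ± 0.24. The sphingomyelinase Smpd3 was at 4.05, 2.56 and 5.88 RPKM in control skin and 0.417, 2.12 and 1.55 RPKM in control lung, a log2 fold change of 1.61 ± 0.50. Sgpl1 and Smpd3 passed the test as higher in skin. For Sphk2, 13% of its exonic bases are shared with Dbp on the opposite strand.

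Among the elongases, Elovl7 was at 7.29, 8.35 and 8.76 RPKM in control skin and 2.59, 1.37 and 1.4 RPKM in control lung (log2 fold change 2.19 ± 0.41, edgeR adjusted p = 4.04e-04), and Elovl6 was at 34.7, 38.1 and 38.3 RPKM in control skin and 8.04, 7.14 and 3.03 RPKM in control lung, higher in skin too (log2 fold change 2.61 ± 0.73, edgeR adjusted p = 0.0084). Elovl5 was at 25.7, 22.9 and 18.9 RPKM in control skin and 84.1, 79.1 and 81.1 RPKM in control lung (log2 fold change -1.86 ± 0.38, edgeR adjusted p = 8.48e-04), and Fads1 was at 17.4, 15.9 and 4.14 RPKM in control skin and 23.6, 35.8 and 31.8 RPKM in control lung, lower in skin as well (log2 fold change -1.28 ± 0.48, edgeR adjusted p = 0.0381). Without 1 library in turn, Degs1, Sgpl1, Smpd3, Sptlc3 and Fads1 each lost the call between the tissues at least once. With the 5 library codes that occur in both tissues as a block, 20 of the 37 genes passed, and Sptlc3, Smpd3 and Fads1 did not. Of the summed level of all Elovl genes, Elovl4, an elongase of ultra-long chains that is not one of the 37, averaged 49.4% ± 6.54 in La-Cer, 59.3% ± 6.53 in AD and 44.9% ± 3.18 in control skin. In lung Elovl5 averaged 48.4% ± 2.67 in La-Cer, 54.9% ± 11.9 in AD and 51.4% ± 4.87 in control, and Elovl1 averaged 48.4% ± 3.2 in La-Cer, 40% ± 8.05 in AD and 40.6% ± 8.34 in control. Elovl1 held 12% ± 8.31 in La-Cer, 1.85% ± 2.12 in AD and 17.4% ± 7.4 in control skin (mean ± SD, n = 3 for each share).

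**Figure D5:**
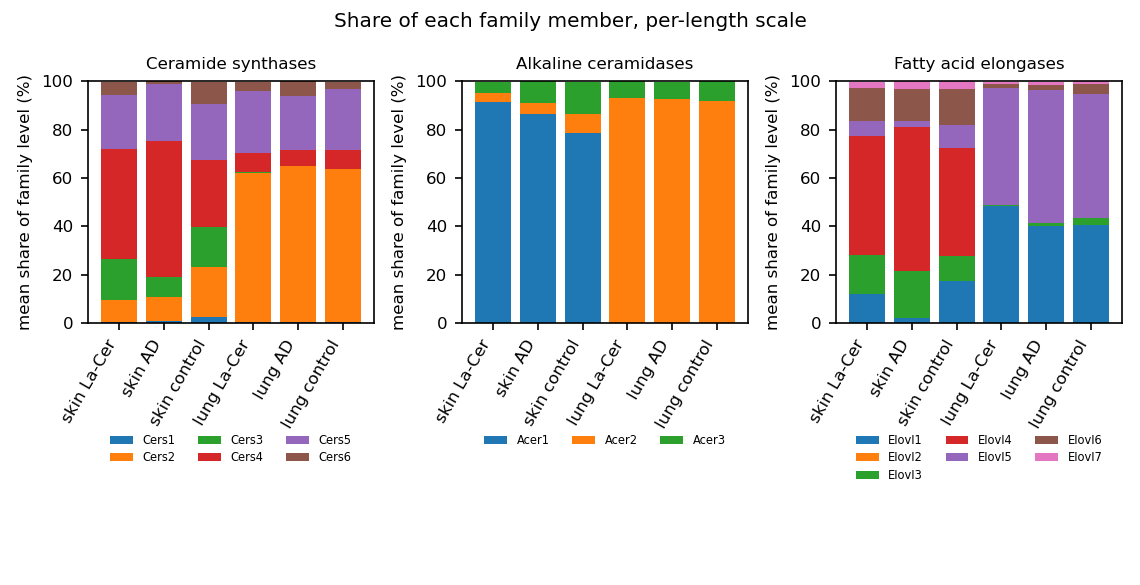
Mean share of each gene in the summed TMM-scaled RPKM of its family (%), for ceramide synthases (left), alkaline ceramidases (middle) and fatty acid elongases (right), by tissue and group (3 libraries each). Acer1 fills most of the ceramidase bars in skin and Acer2 those in lung, Cers4 is the largest part of the synthase bars in skin and Cers2 in lung, and Elovl4 is the largest elongase part in skin and nearly absent in lung.

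The effect of AD differed between skin and lung for 8 of the 37 genes, 21.6%, against 14.7% of all genes, 9.44% higher and 5.3% lower in skin, in the interaction test over 18 libraries. The AD effect was higher in skin for Sptssa, Cers4, Cers5, Degs1, Degs2, Elovl6 and Elovl7 and lower in skin for Cers6. Cers6 had an AD effect of -1.69 in skin and 1.01 in lung, each fitted within its tissue, and the difference in the joint fit was -2.62 ± 0.57 (SE, edgeR adjusted p = 0.0121). Sptssa had 2.09 in skin and -0.74 in lung, and Degs1 had 2.47 in skin and -0.02 in lung. Cers6, Degs1, Degs2 and Sptssa passed also without any 1 library of AD or control, while the other 4 lost the call without at least 1. The length trend moved in opposite directions with AD in skin and lung. With this trend removed, the 8 genes still passed. For Cers4, Cers5 and Elovl6 the difference between the tissues passed the test although the AD effect in skin did not. Elovl3 did not pass here, with a difference of 4.83 ± 1.86 (SE, edgeR adjusted p = 0.0854). The effect of La-Cer against AD differed between the tissues for none of the 37, against 1.62% of all genes, with 3 genes at an unadjusted p under 0.05, 8.11%, against 24.5% of all genes; DESeq2 called 1. Cers6 came closest, with a log2 fold change of 1.45 in skin and -0.83 in lung and a difference of 2.24 ± 0.57 (SE, edgeR adjusted p = 0.0522).

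A further 52 genes of the same pathways, listed apart from the 37, gave 1 call of 50 tested in AD skin, 2% of the list and less than the 6.86% of all genes, with a median log2 fold change of 0.23. The call was Elovl4, at 381, 1348 and 1031 RPKM in AD and 87, 106 and 143 RPKM in control skin without overlap (log2 fold change 3.04 ± 0.72, edgeR adjusted p = 0.043); La-Cer skin had 803, 172 and 154 RPKM, replicate 1 far above the other 2. La-Cer skin gave 0 calls of 50 against AD and 0 of 50 against control. The smallest p against AD belonged to Hexa (-0.93 ± 0.26), a subunit of the hexosaminidase that degrades gangliosides, Gba2 (1.25 ± 0.37), a glucosylceramidase, and Sgpp2 (-3.03 ± 0.98), and against control to Scd3 (2.59 ± 0.59), Hsd17b12 (1.43 ± 0.51) and Hacd2 (1.46 ± 0.56), the last 2 enzymes of the elongation cycle. In lung none of 51 passed between AD and control, where Ormdl2 (-0.92 ± 0.30), Spns2 (-1.2 ± 0.40) and Asah2 (0.61 ± 0.21) had the smallest p. Gal3st1, the sulfotransferase that makes sulfatide, was the 1 call of 51 between La-Cer and AD lung, 1.96% of the list against 1.91% of all genes. It was at 6.48, 5.51 and 6.13 RPKM in La-Cer and 3.1, 3.21 and 2.77 RPKM in AD lung, all La-Cer libraries higher (log2 fold change 1 ± 0.20, edgeR adjusted p = 0.0463). La-Cer against control lung gave 0 of 51, with Gal3st1 (0.55 ± 0.20), St3gal5 (0.39 ± 0.16) and Acacb (-0.83 ± 0.47) at the smallest p. Control skin and control lung differed in 21 of 51, 41.2%, 10 higher and 11 lower in skin, again close to all genes. Those higher in skin were Elovl4, Scd3, Cers3, Smpdl3b, Cers1, Gltp, Hacd2, Tecr, Smpd4 and Ormdl3, with log2 fold changes between 0.73 for Ormdl3 and 9.43 for Elovl4. Among those lower in skin were Sgpp2, A4galt, Smpd5, Hacd4, B4galt5, Smpdl3a, St3gal5, Hexa, Aldh3a2 and Psap, with log2 fold changes between -7.08 for Sgpp2 and -0.72 for Psap. The interaction of AD and tissue gave 5 of 51, 9.8% of the list and less than the 14.7% of all genes. All 5 were higher in skin: Smpdl3a (1.94 ± 0.55), Hexa (1.39 ± 0.33), Sgpp2 (3.04 ± 0.87), Elovl4 (3.1 ± 0.89) and Hacd2 (2.01 ± 0.65). The interaction of La-Cer and tissue gave 1 of 51, 1.96% of the list against 1.62% of all genes. This gene was Hexa, lower in skin (-1.46 ± 0.33, edgeR adjusted p = 0.0439).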

How the data were processed

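The authors deposited untransformed counts of reads by Ensembl gene, 9 libraries in each tissue. Beside them the file headers list FPKM made by the authors, and these 498609 values in each tissue could be recomputed from the counts to within 0.005, so only the counts were tested. Tools listed in the submitters' processing notes are cutadapt 1.9.1 and bcl2fastq 2.17.1.14, with the build GRCm38. Which aligner and counting tool were used, and whether counting used strand, is not given in the sources used here. Coordinates and exonic sizes are those of the tables.

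Counts were tested with edgeR 4.0.16 (TMM, filterByExpr, robust quasi-likelihood) in R 4.3.3, over the 9 libraries of a tissue, or over all 18 for tissue differences and interactions. P-values were adjusted by Benjamini-Hochberg over all genes tested, and a gene was called at an adjusted p under 0.05. Scripts were tested on simulated counts. The members, lists and tests were chosen with earlier results of these data known. The number of highest libraries set beside markers was set separately for each list, 4 for sebaceous gland and 3 for hair follicle and Ucp1. It was not set blind to these data, so the counts of shared highest libraries only describe the libraries. All 37 members are described: library values were to be given for those called within a tissue and, in AD against control and La-Cer against AD, for the 2 per role with the smallest p, others by fold change, range or count. Of the other pathway genes, those called or, with no call, the 3 with the smallest p are named. Further library values were chosen after they were seen: Ucp1 in lung, Sptlc1, Cers4, Cers5, Fa2h, Elovl6, Scd1 and Fads2 in AD skin, Cers2, Elovl3, Fa2h and Cers4 in La-Cer skin, Acer1 and Fa2h in La-Cer against control skin, Acer3 and Elovl3 in lung, and the members called between the tissues.

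The labels do not say that libraries with the same replicate number share a mouse. Same-numbered libraries correlated between -0.73 and 0.26 in skin and between -0.20 and 0.31 in lung in their deviations from the group means. In the file headers 5 library codes (2 control, 3 La-Cer) occur in both tissues and may mark the same mice, which the labels do not say. No 2 libraries of a group agreed within counting noise. Also run were DESeq2 1.42.0, size factors by RLE, all genes without a filter, removal of the length trend, a fit to the 6 compared libraries, a replicate block and leaving out each library. Counts carry no molecular identifiers, so p-values rest on the spread between the 3 libraries of a group, which come from 3 mice per the series' design text.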

Additional observations from a re-analysis of the deposited data

Results flagged for a closer look

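The AD effect differed between skin and lung for 8 genes, by the interaction term over 18 libraries (edgeR, adjusted over all 19129 genes tested). The difference, skin minus lung on the log2 scale, was 2.91 ± 0.66 (SE, edgeR adjusted p = 0.0134) for Sptssa and 2.64 ± 0.74 (SE, edgeR adjusted p = 0.0282) for Cers4. It was 1.4 ± 0.40 (SE, edgeR adjusted p = 0.0306) for Cers5, -2.62 ± 0.57 (SE, edgeR adjusted p = 0.0121) for Cers6, 2.57 ± 0.58 (SE, edgeR adjusted p = 0.0131) for Degs1 and 5.02 ± 1.18 (SE, edgeR adjusted p = 0.0144) for Degs2. For the elongases it was 3.37 ± 1.01 (SE, edgeR adjusted p = 0.035) for Elovl6 and 2.24 ± 0.57 (SE, edgeR adjusted p = 0.0192) for Elovl7. The value of Degs2 rests on few reads in lung, 8, 8 and 22 counts in AD and 18, 9 and 24 counts in control libraries. Cers6 was lower in AD than in control in skin in all 3 libraries against all 3. In lung it was higher in all 3 against all 3, but AD replicate 3 lay only just above control replicate 2. The change within lung was not called (log2 fold change 1.01, edgeR adjusted p = 0.182). The 5 library codes found in both tissues may mark the same mice, which the interaction test does not model.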

How the results depend on the processing

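The shares of all genes called under the alternatives below are not given here, so these counts show only how the calls among the 37 moved. Of the 37 genes, 6 were called in AD skin, and 12 were called with DESeq2, 0 with the length trend removed and 0 with the replicate block. Leaving out 1 library gave 0 to 3. RLE size factors gave 6, and no filter and the 6 compared libraries gave 9 each. La-Cer against AD skin, at 0, gave 1 with DESeq2 and 2 without the filter. AD lung, at 0, gave 1 with DESeq2 and 0 to 1 without 1 library. La-Cer against AD lung, at 0, gave 1 with DESeq2 and 6 with the 6 compared libraries. The tissue contrast, at 17, gave 16 to 20, the 20 with the shared library codes as a replicate block, and 14 to 18 without 1 library. The AD interaction, at 8, gave 7 to 10, and 4 to 10 without 1 library: 4 without skin control replicate 1 and 5 without lung control replicate 1, AD replicate 1 or AD replicate 3. The La-Cer interaction, at 0, gave 1 with DESeq2, 1 without the filter and 0 to 3 without 1 library, 3 without skin La-Cer replicate 1. La-Cer against control gave 0 throughout in both tissues. With the replicate block the count stayed at 0 in each of the other comparisons within a tissue, and the replicate numbers do not pair the libraries. Without 1 library, log2 fold changes lay between -0.0849 (without AD replicate 3) and 0.66 for Ugcg in AD skin, between -0.54 and 0.24 (without AD replicate 3; 0.03 without La-Cer replicate 2) for Ugcg between La-Cer and AD skin, and between -1.03 and 0.10 (without control replicate 1) for Sptssa in AD lung; Acer3 between La-Cer and AD lung was at 0.0803 with the length trend removed. Of the gene values under alternatives, 614 kept direction and side of the threshold, 91 lost and 13 gained a call, and 5 changed sign. These numbers pool all comparisons and include genes that were not called in the main fit. For the 6 genes called in AD skin, all 72 alternative fits kept the sign but only 26 kept the call. The causes were not tested. Depth limits Degs2 in skin and Degs2, Fa2h and Acer1 in lung, which rest on few counts in at least 1 group.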
